A study of Sus scrofa with 9 samples.

Results

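The 10 genes described here write, read and erase DNA methylation or feed that cycle, and their own exonic 5-hydroxymethylcytosine (5hmC) levels were followed in swine mesenchymal stem/stromal cells (MSCs). They were chosen by symbol and all 10 were found in both tables, which hold 18933 genes for Obese-MSCs versus Lean-MSCs and 18992 genes for vitamin-C-treated versus untreated Obese-MSCs. MSCs came from subcutaneous abdominal fat of female domestic pigs, which were 3 months old when they started on standard chow (Lean, 3 libraries) or high-fat/high-fructose feed (Obese, 3 libraries) for 16 weeks. Another 3 libraries came from Obese-MSCs that were given vitamin-C at 50 µg/mL for 48 h in culture. The paper states that the growth medium itself contained some vitamin-C, so untreated means without added vitamin-C throughout. According to the paper, the effect of the treatment might have been underestimated for that reason. Libraries keep the numbers of the labels, which are 1 to 3 for untreated Obese-MSCs, 4 to 6 for treated Obese-MSCs and 7 to 9 for Lean-MSCs. The labels do not say whether any animal gave both a treated and an untreated culture, or that each library of a group is a separate animal, so p-values measure the spread between these libraries.

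In the methylation cycle, DNMT3A and DNMT3B place new 5-methylcytosine (5mC) on CpG sites, and DNMT1 copies it onto the daughter strand after UHRF1 has recognized the hemimethylated site. The TET dioxygenases TET1, TET2 and TET3 oxidize 5mC to 5hmC and further to forms that the thymine DNA glycosylase TDG excises. TET enzymes need iron, oxygen and 2-oxoglutarate, which the isocitrate dehydrogenases IDH1 (cytosol) and IDH2 (mitochondria) produce, and vitamin-C helps to keep their iron reduced. In many tissues 5hmC accumulates over the bodies of transcribed genes. The quantity measured here is 5hmC on the exons of these genes, captured with an anti-5hmC antibody (hMeDIP-seq), and it is neither the expression nor the activity of the enzymes.

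Values are normalized counts, the number of captured fragments over all exons of a gene after the library totals were brought close together. Libraries summed to 494566 to 522269 in the table of the diets and to 547242 to 593846 in that of vitamin-C, and the 10 genes together took between 0.0660% and 0.0758% of a library. The same untreated Obese libraries were normalized separately for each table, and their values for the 10 genes were between 1.10 and 1.16 times as high in the second, so groups were compared within a table only. Exon lengths were not used here, and since a longer gene collects more fragments, the levels of different genes were not ranked. A value averages over all cells of a culture, so a change in a few cells and a smaller change in all cells cannot be told apart. Surface marker genes cannot identify the cells in these data, because captured signal also lay on genes that MSCs do not display. CD34 ranged from 13.4 to 23.8 and PTPRC from 35.9 to 68.5 over the Obese and Lean libraries, against 12.4 to 67.4 over the MSC markers NT5E, THY1 and ENG. ENG did not overlap between the diets, with an Obese mean of 57.3 ± 8.72 against a Lean mean of 40.4 ± 10.2 (SD, n = 3 each), and its part in the differences of the 10 genes was not tested. NT5E and THY1 overlapped, while CD14 was at 0 in all 3 Lean libraries and between 0.650 and 4.49 in the Obese ones.

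Positions are those of Sscrofa11.1. The genes of the TET family lie on chromosome 14 from 71675671 to 71812732 (TET1), chromosome 8 from 116413253 to 116546976 (TET2) and chromosome 3 from 68918896 to 69020406 (TET3). DNMT3A lies on chromosome 3 from 113501972 to 113609148, DNMT3B on chromosome 17 from 36345715 to 36386076, and DNMT1 and UHRF1 on chromosome 2 from 68981564 to 69040364 and from 73898061 to 73937727. TDG occupies chromosome 5 from 80473233 to 80492295, IDH1 chromosome 15 from 111341153 to 111362330 and IDH2 chromosome 7 from 55654298 to 55675571. The spans of 4 of the 10 genes overlap that of another annotated RefSeq gene, namely TDG with GLT8D2, UHRF1 with ARRDC5, TET3 with LOC102163719 and TET1 with the pseudogene LOC106508086. Reads from exons that such neighbours share cannot be separated in these values.

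The first comparison asked whether 5hmC on the genes of the 5hmC machinery itself differed between Obese-MSCs and Lean-MSCs. The paper reports that the Obese pigs also had hypertension, dyslipidemia and insulin resistance, whose parts these groups cannot tell apart. IDH1, UHRF1 and DNMT3A had higher 5hmC in all 3 Obese libraries than in any Lean library, by ratios of group means of 1.38, 1.41 and 1.15. The other 7 genes overlapped between the diets, among them all 3 TET genes. Over all genes of this table the groups did not overlap in 11.8%, with 5.7% higher and 6.06% lower in Obese-MSCs. None of the 10 genes met the criteria used for high or low 5hmC levels (an unadjusted p-value of 0.05 or less in a two-sided test with equal variances, and a ratio of at least 1.4 or at most 0.7), which 4.5% of all genes of this table met. By the p-value alone 2 of the 10 passed, DNMT3A and IDH1 (6.04% of all genes did), and by the ratio alone 3 did, TDG, UHRF1 and IDH2 (29.4%). With limma, 0 of the 10 genes passed a Benjamini-Hochberg adjusted p-value of 0.05, and 0 had an unadjusted limma p of 0.05 or less, against 6.81% of all genes tested. The smallest unadjusted limma p among them was 0.103, for UHRF1.

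Among the genes that oxidize 5mC, TET1 had 34.5, 29.4 and 21.5 normalized counts in Obese libraries 1 to 3 and 32.9, 34.7 and 39.0 in Lean libraries 7 to 9. Obese library 1 reached into the Lean range, and the other two lay below it. The means were 28.5 ± 6.57 and 35.5 ± 3.15 (SD, n = 3 each), a log2 ratio of -0.32 (two-sided exact permutation test, p = 0.2). TET2 had 58.7, 38.8 and 51.7 in Obese-MSCs against 56.3, 39.7 and 48.3 in Lean-MSCs. Both groups of TET2 covered nearly the same range, and the log2 ratio of the means was 0.05 (exact permutation test, p = 0.8). TET3 was measured at 89.1, 68.2 and 60.3 in Obese-MSCs against 60.0, 52.6 and 84.1 in Lean-MSCs. One library stood high in each group, Obese 1 and Lean 9, and the log2 ratio of 0.15 for TET3 was within that spread (exact permutation test, p = 0.5). The 95% limma intervals of the difference on the log2(value + 1) scale were -0.89 to 0.23 for TET1, -0.48 to 0.56 for TET2 and -0.35 to 0.66 for TET3. All 3 intervals include 0 and leave room for a shift in either direction. TDG, which removes the oxidized bases, had 18.1, 18.1 and 9.72 normalized counts in Obese-MSCs against 8.03, 14.9 and 8.24 in Lean-MSCs. Its ratio of 1.47 was past the ratio criterion, but Obese library 3 lay below Lean library 8 (exact permutation test, p = 0.2).

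Of the DNA methyltransferases that place new marks, DNMT3A had 60.7, 55.9 and 55.4 normalized counts in Obese-MSCs against 50.9, 48.6 and 50.3 in Lean-MSCs. Both groups were tight and did not overlap. The means were 57.4 ± 2.95 and 49.9 ± 1.15 (SD, n = 3 each), a log2 ratio of 0.20, and the coefficients of variation of 5.14% and 2.31% compare with medians of 25.6% and 23.7% over the tested genes. The p-value of the equal-variance test, computed for every gene of the table, was 0.0155 for DNMT3A and rests on that small spread, whereas limma, which draws each gene's spread towards that of genes of similar level, gave 0.396 and an adjusted p of 0.910. DNMT3B went the other way, with 30.9, 42.8 and 31.9 in Obese-MSCs against 50.7, 41.7 and 39.1 in Lean-MSCs. Obese library 2 exceeded 2 of the Lean libraries, so the log2 ratio of -0.32 was within the spread (exact permutation test, p = 0.3).

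For maintenance methylation, DNMT1 had 31.2, 65.6 and 44.8 normalized counts in Obese-MSCs against 50.9, 52.6 and 46.2 in Lean-MSCs. The Lean libraries sat close together while Obese libraries 1 and 2 lay on either side of them. Its means of 47.2 ± 17.3 and 49.9 ± 3.30 (SD, n = 3 each) gave a log2 ratio of -0.08, which was -0.39 without Obese library 2 and 0.15 without Obese library 1. UHRF1, the partner that brings DNMT1 to the replicated strand, had 25.7, 23.7 and 23.6 in Obese-MSCs against 22.4, 12.9 and 16.4 in Lean-MSCs. Every Obese library was above every Lean library, but Lean library 7 came close to the Obese range. The ratio of means of UHRF1, 24.3 ± 1.201 against 17.2 ± 4.80 (SD, n = 3 each), was past 1.4. Its unadjusted equal-variance p was 0.0684, so only the ratio criterion was met. Limma gave a difference of 0.51 ± 0.30 (SE) on the log2(value + 1) scale with an adjusted p of 0.792.

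IDH1, the cytosolic source of 2-oxoglutarate, had 26.5, 25.6 and 24.8 normalized counts in Obese-MSCs against 20.3, 17.9 and 17.5 in Lean-MSCs. The groups were separated by a gap wider than the spread inside either of them. The means were 25.6 ± 0.846 and 18.5 ± 1.53 (SD, n = 3 each), a log2 ratio of 0.47 whose range was 0.42 to 0.54 when single libraries were omitted. The unadjusted equal-variance p for IDH1 was 0.00218 and rests on a small spread. The coefficients of variation of IDH1 were 3.30% and 8.23%, against medians of 25.6% and 23.7% over the tested genes. Its exact permutation p of 0.1 is the lowest that 3 libraries against 3 can reach, and limma gave an adjusted p of 0.812. The ratio of 1.38 fell just short of the criterion of 1.4, and 68.6% of the genes with a ratio had a smaller change in size. Without Lean library 7 the ratio passed, and IDH1 and UHRF1 then met the criteria, and without Obese library 3 IDH1 alone did. The shares of all genes that met the criteria under these omissions were not computed. IDH2, the mitochondrial enzyme, had 4.98, 15.2 and 13.96 in Obese-MSCs against 5.75, 10.9 and 6.18 in Lean-MSCs. Obese library 1 was the lowest of all 6, so the ratio of 1.495 for IDH2 came with overlapping groups (exact permutation test, p = 0.4).

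**Figure D1:**
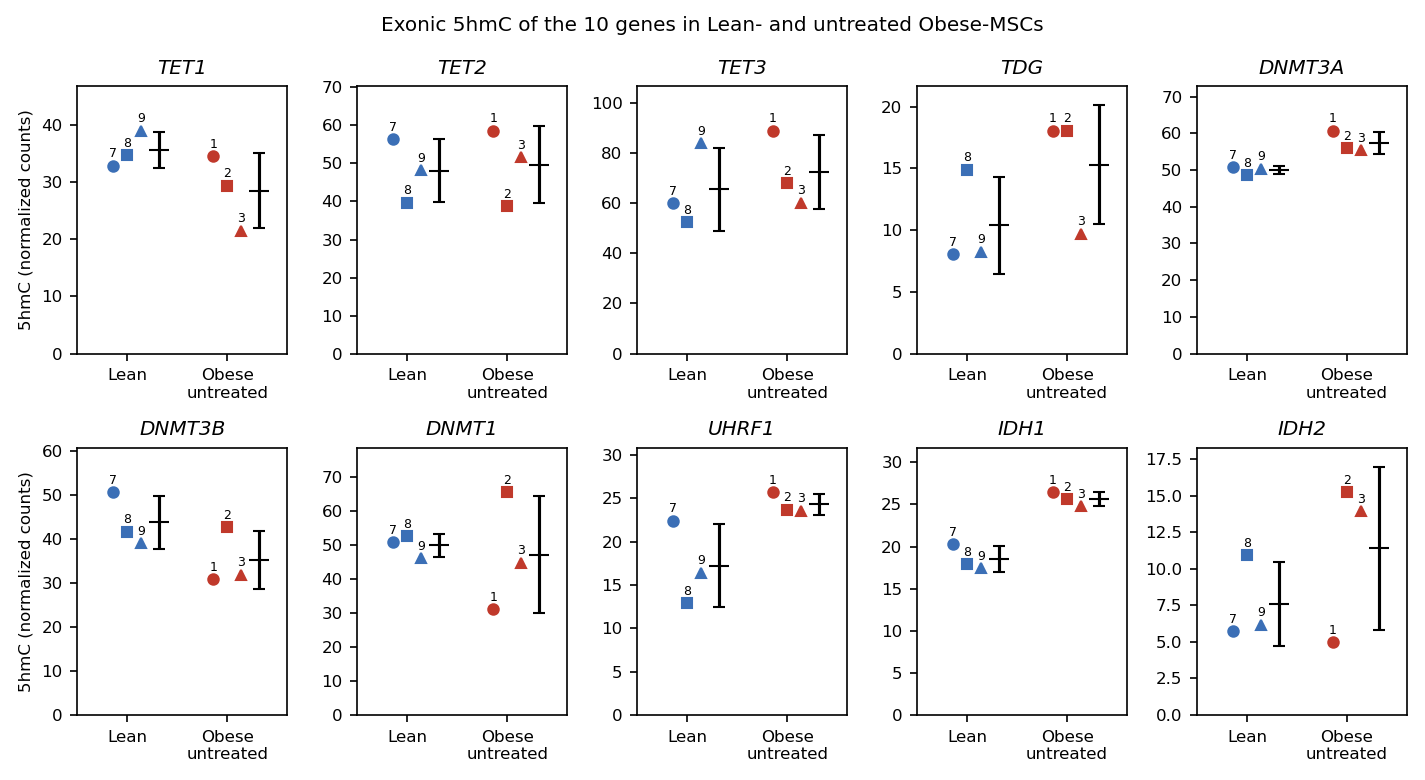
5hmC levels of the 10 genes in normalized counts (vertical axis, from 0) in 3 Lean (blue) and 3 untreated Obese libraries (red), each point labelled with its library number and the bar giving the mean ± SD. The groups are separate for DNMT3A, UHRF1 and IDH1 and overlap for the other 7 genes, with DNMT1 spread from 31.2 to 65.6 in the Obese libraries.

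The groups did not overlap in 3 of the 10 genes, all higher in Obese-MSCs, where 11.8% of all genes of the table did not overlap, with 5.7% higher and 6.06% lower in Obese-MSCs. Over the 10 genes, 7 had a ratio above 1 and 3 below, with a median log2 ratio of 0.17, and over all genes the median was 0.01. The median of the 10 genes was 0.10 without Lean library 8 and 0.29 without Lean library 9. Obese library 1 had the highest value of the 6 libraries for 6 of the genes (TET2, TET3, TDG, DNMT3A, UHRF1 and IDH1) and the lowest for 3 (DNMT3B, DNMT1 and IDH2). The spread between libraries was no wider for this set than elsewhere, since 3 of the 10 genes in the Obese and 4 in the Lean libraries had a coefficient of variation above the median of the tested genes. It ranged from 3.30% for IDH1 to 49.1% for IDH2 in the Obese libraries and from 2.31% for DNMT3A to 37.7% for IDH2 in the Lean libraries.

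The second comparison asked whether vitamin-C, given to Obese-MSCs as a TET cofactor, shifts 5hmC on these same genes. The treated and untreated libraries overlapped for all 10 genes, and no gene met the criteria for high or low 5hmC levels. Among all genes of this comparison, 5.91% did not overlap (3.24% higher and 2.67% lower with vitamin-C) and 1.92% met the criteria. By the p-value alone 0 of the 10 passed (2.64% of all genes did), and by the ratio alone also 0 (21.7%). TDG had the largest change in size, a ratio of 0.701 that ended just above the limit of 0.7, and UHRF1 the highest increase, a ratio of 1.24 that rests on 1 treated library. With limma, 0 of the 10 genes passed an adjusted p of 0.05 and 0 had an unadjusted p of 0.05 or less, against 0.974% of all genes tested. The smallest unadjusted limma p was 0.228, for TDG, and the adjusted p was 1.00 for each of the 10 genes.

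TET1 had 27.2, 33.4 and 18.6 normalized counts in treated libraries 4 to 6 and 38.2, 33.2 and 23.7 in untreated libraries 1 to 3. Treated library 5 lay above 2 of the untreated libraries, and the means of 26.4 ± 7.43 and 31.7 ± 7.34 (SD, n = 3 each) gave a log2 ratio of -0.26 (exact permutation test, p = 0.5). For TET2 the treated libraries had 68.4, 61.1 and 45.5 and the untreated libraries 65.0, 44.1 and 56.9. The ranges of TET2 nearly coincided, with a log2 ratio of 0.08. The values of TET3 were 109, 79.6 and 79.6 with vitamin-C and 98.7, 77.3 and 66.4 without. The treated mean of TET3 was higher by a log2 ratio of 0.14, less than the spread in either group (exact permutation test, p = 0.5). Of the 3 TET genes none had a limma interval on the log2(value + 1) scale that excluded 0, with -0.93 to 0.40 for TET1, -0.49 to 0.64 for TET2 and -0.38 to 0.67 for TET3.

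TDG had 13.1, 12.03 and 10.7 normalized counts with vitamin-C and 19.96, 20.3 and 10.8 without. Untreated libraries 1 and 2 stood above the treated range, and untreated library 3 fell inside it. The means were 11.9 ± 1.19 and 17.0 ± 5.39 (SD, n = 3 each), a log2 ratio of -0.51 with an exact permutation p of 0.3 and a limma interval from -1.17 to 0.30. The log2 ratio of TDG was -0.76 without untreated library 3 and -0.37 without untreated library 2. Without untreated library 3 the gene met the criteria for low 5hmC, but the share of all genes that then did was not computed.

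DNMT3A had 55.3, 70.3 and 92.4 normalized counts with vitamin-C and 67.4, 63.3 and 61.0 without. The treated libraries reached below and above the untreated ones, and their coefficient of variation was 25.7% against 5.13%. The log2 ratio of DNMT3A, 0.19, became -0.02 without treated library 6. DNMT3B had 29.2, 45.5 and 31.2 with and 34.4, 48.2 and 35.2 without vitamin-C. In both groups of DNMT3B 1 library stood above the other two, which are treated library 5 and untreated library 2, and the log2 ratio was -0.15 (exact permutation test, p = 0.5). DNMT1 showed the same 2 libraries on top, with 40.2, 73.4 and 41.9 in the treated and 35.1, 73.8 and 49.3 in the untreated group. Its means of 51.8 ± 18.6 and 52.8 ± 19.6 (SD, n = 3 each) were nearly equal, but the limma interval from -0.70 to 0.66 is wide.

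UHRF1 had 27.2, 24.9 and 48.6 normalized counts with vitamin-C and 28.5, 26.8 and 26.0 without. Treated library 6 was far above the other 5 libraries, which lay within 24.9 to 28.5. The log2 ratio of UHRF1 was 0.31 with all libraries and -0.06 without treated library 6. IDH1 had 32.2, 18.4 and 20.5 with vitamin-C and 29.4, 29.0 and 27.3 without. Treated library 4 was above every untreated library and the other two treated libraries below every one, so the tight untreated group (coefficient of variation 3.90%) was set against a wide treated one (31.3%). The log2 ratio of IDH1 was -0.27, and without treated library 4 it was -0.55 and the gene met the criteria for low 5hmC. IDH2 had 11.07, 12.05 and 10.7 with and 5.79, 17.1 and 15.3 without vitamin-C. Here the treated libraries were close together inside the wide untreated range, at a log2 ratio of -0.17. Without untreated library 1 the log2 ratio of IDH2 was -0.52 and the gene met the criteria. For these omissions too, the shares of all genes that met the criteria were not computed.

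**Figure D2:**
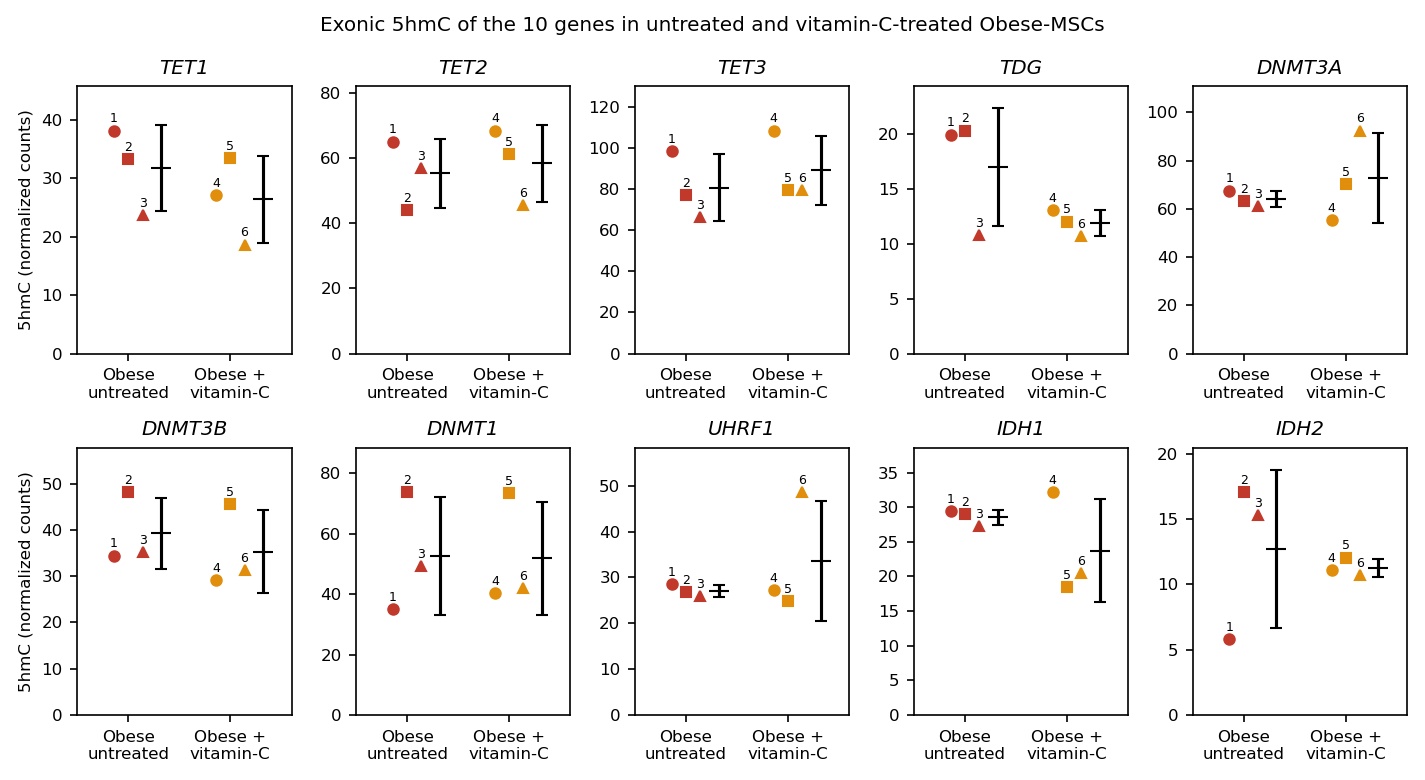
5hmC levels of the 10 genes in normalized counts (vertical axis, from 0) in 3 untreated (red) and 3 vitamin-C-treated Obese libraries (orange), each point labelled with its library number and the bar giving the mean ± SD. The groups overlap in every panel, and treated library 6 alone lifts UHRF1, at 48.6 against 24.9 to 28.5 elsewhere.

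Over the 10 genes, 4 had a ratio above 1 and 6 below with vitamin-C, with a median log2 ratio of -0.09 against 0.01 over all genes of the table. Omitting single libraries moved this median within -0.17 to 0.06, and it turned positive without untreated library 2. The untreated Obese libraries serve in both comparisons, on opposite sides, so the values of a gene in them are given side by side only. IDH1 had log2 ratios of 0.47 in Obese-MSCs and -0.27 with vitamin-C, UHRF1 0.50 and 0.31, DNMT3A 0.20 and 0.19, and TDG 0.56 and -0.51. For the TET genes the pairs were -0.32 and -0.26 for TET1, 0.05 and 0.08 for TET2, and 0.15 and 0.14 for TET3.

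In both comparisons all 10 limma intervals included 0. None of them lay wholly inside the limits that the ratio criteria set, which are -0.51 and 0.49 on the log2 scale. In Obese-MSCs versus Lean-MSCs 7 intervals reached the upper limit and 3 the lower one, and with vitamin-C 6 reached the upper and 6 the lower. In this fit, which pairs no libraries, a change of the size that the criteria ask for was therefore not excluded for any of the genes. Treated libraries were also matched to untreated ones by a pattern seen in the data and not given by the labels. The interval of DNMT1 with vitamin-C was then -0.44 to 0.41, wholly inside those limits, and the other 9 intervals were not. Because the matching came from these same libraries, that interval can be too narrow and excludes no such change for DNMT1. The standard errors ran from 0.22 for DNMT3A to 0.43 for IDH2 in the first comparison.

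**Figure D3:**
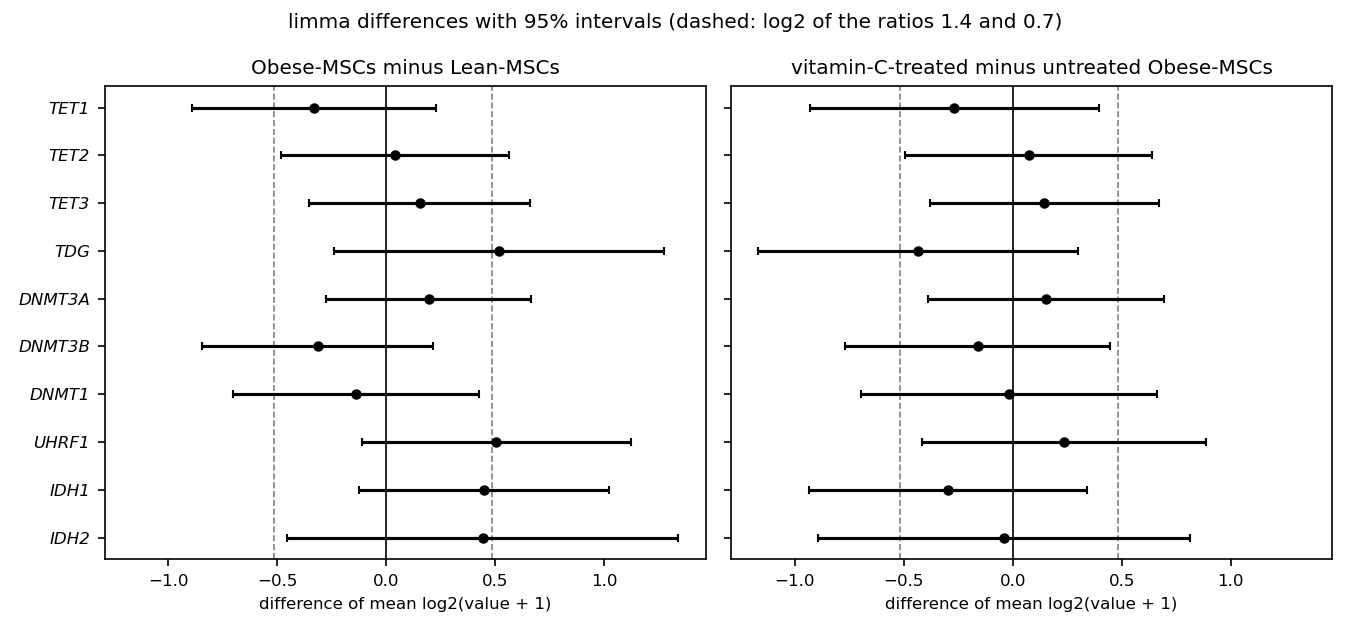
Differences of group means on the log2(value + 1) scale (points) with 95% limma intervals (bars) for the 10 genes, in Obese-MSCs minus Lean-MSCs (left) and vitamin-C-treated minus untreated Obese-MSCs (right). Every interval crosses the solid line at 0, and each crosses at least 1 of the dashed lines at -0.51 and 0.49.

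Around these 10 genes, 72 of 73 listed genes of the same pathways were in both tables. They were grouped as TET partners and regulators (10), readers of 5mC and 5hmC (9), DNMT partners and maintenance factors (10), repair of demethylation intermediates (14), supply and removal of 2-oxoglutarate (14) and the S-adenosylmethionine cycle that provides methyl groups (15). In Obese-MSCs versus Lean-MSCs, 2 of the 72 met the criteria for high 5hmC (2.07% of all genes did) and 2 for low 5hmC (2.43%), and the groups did not overlap in 9 (12.5%, against 11.8% of all genes). The median log2 ratio was 0.20, with 48 genes above and 24 below a ratio of 1. Besides the genes that met the criteria, WT1, HELLS, PCNA, AHCYL1 and SHMT1 did not overlap, all higher in Obese-MSCs. They are named after their values were seen. In limma no adjusted p among 61 of the pathway genes reached 0.05. An unadjusted p of 0.05 or less was found for 8 of 61, against 1031 of all 15146 genes tested (6.81%). These 8 were HMCES, PRDM14, UHRF2, WT1, DNMT3L, PCNA, MAT1A and MAT2B.

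The 2 genes with high 5hmC in Obese-MSCs were DNMT3L and MAT1A. DNMT3L, a catalytically inactive cofactor of the de novo methyltransferases, had 88.5, 94.8 and 88.3 normalized counts in Obese-MSCs against 37.7, 64.5 and 69.8 in Lean-MSCs, a log2 ratio of 0.66 (limma, adjusted p = 0.668). MAT1A, which makes the methyl donor S-adenosylmethionine and is known for its expression in liver, had 19.4, 15.1 and 23.3 against 10.2, 9.93 and 8.23. Its log2 ratio was 1.03, with the same limma adjusted p of 0.668. The 2 genes with low 5hmC were HMCES and PRDM14. HMCES, which shields abasic sites in single-stranded DNA, had 9.47, 9.51 and 3.77 in Obese-MSCs against 14.7, 15.9 and 14.4 in Lean-MSCs, a log2 ratio of -0.98 (limma, adjusted p = 0.679). PRDM14, a pluripotency factor that works with the TET enzymes, had 3.16, 1.88 and 2.38 against 4.61, 7.95 and 6.17, values too low for a fold change to be given. With vitamin-C none of these 4 genes met the criteria. DNMT3L then had 77.5, 117 and 141 normalized counts against 98.5, 107 and 97.2, with treated values on both sides of the untreated ones.

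With vitamin-C, 2 of the 72 genes met the criteria for high 5hmC (1.11% of all genes did) and 0 for low 5hmC (0.806%), and the groups did not overlap in 5 (6.94%, against 5.91% of all genes). The median log2 ratio was 0.00, with 35 genes above and 37 below a ratio of 1, and in limma no adjusted p among 60 of them reached 0.05, while 1 gene (POLB) had an unadjusted p of 0.05 or less, against 0.974% of all genes tested. SMUG1, a glycosylase that excises uracil and 5-hydroxymethyluracil, had 12.1, 13.0 and 12.5 normalized counts in the treated and 8.68, 5.42 and 8.96 in the untreated libraries. Every treated library of SMUG1 was above every untreated one, at a log2 ratio of 0.70 (limma, adjusted p = 1.00), and in the other comparison its groups overlapped. ZFP57, which protects imprinted methylation, had 4.02, 2.76 and 2.66 against 1.77, 0.0171 and 1.29, too low for a fold change. The other genes without overlap, CDCA7, NEIL3 and POLB, are named after their values were seen. CDCA7, a partner of the remodeller HELLS, was higher with vitamin-C by a log2 ratio of 0.33, and the repair glycosylase NEIL3 lower, with a ratio of 0.701. The gap-filling polymerase POLB had 3.02, 2.78 and 1.75 normalized counts with vitamin-C and 6.89, 4.36 and 10.1 without.

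None of the 9 reader genes and none of the 14 genes of 2-oxoglutarate supply met the criteria in either comparison. Over all 9 reader genes, those of low mean included, the median log2 ratio was 0.07 in Obese-MSCs versus Lean-MSCs and 0.04 with vitamin-C. For the 14 genes of 2-oxoglutarate supply and removal it was 0.24, with 11 above a ratio of 1. With vitamin-C it was -0.14, with 4 of 14 above. The untreated Obese libraries serve on opposite sides of the 2 comparisons, so these medians are given side by side only. DNMT partners and maintenance factors had the highest median of the 6 groups in the first comparison, 0.36, with 8 of 10 above 1. With vitamin-C the median of that group was 0.02, with 5 of 10 above 1. Over all genes, 9701 of 18933 were above 1 in the first comparison and 9715 of 18992 in the second. For genes with means above 3 in both groups, the medians of the readers were 0.05 and 0.04. Those of 2-oxoglutarate supply and removal were 0.19 and -0.14.

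**Figure D4:**
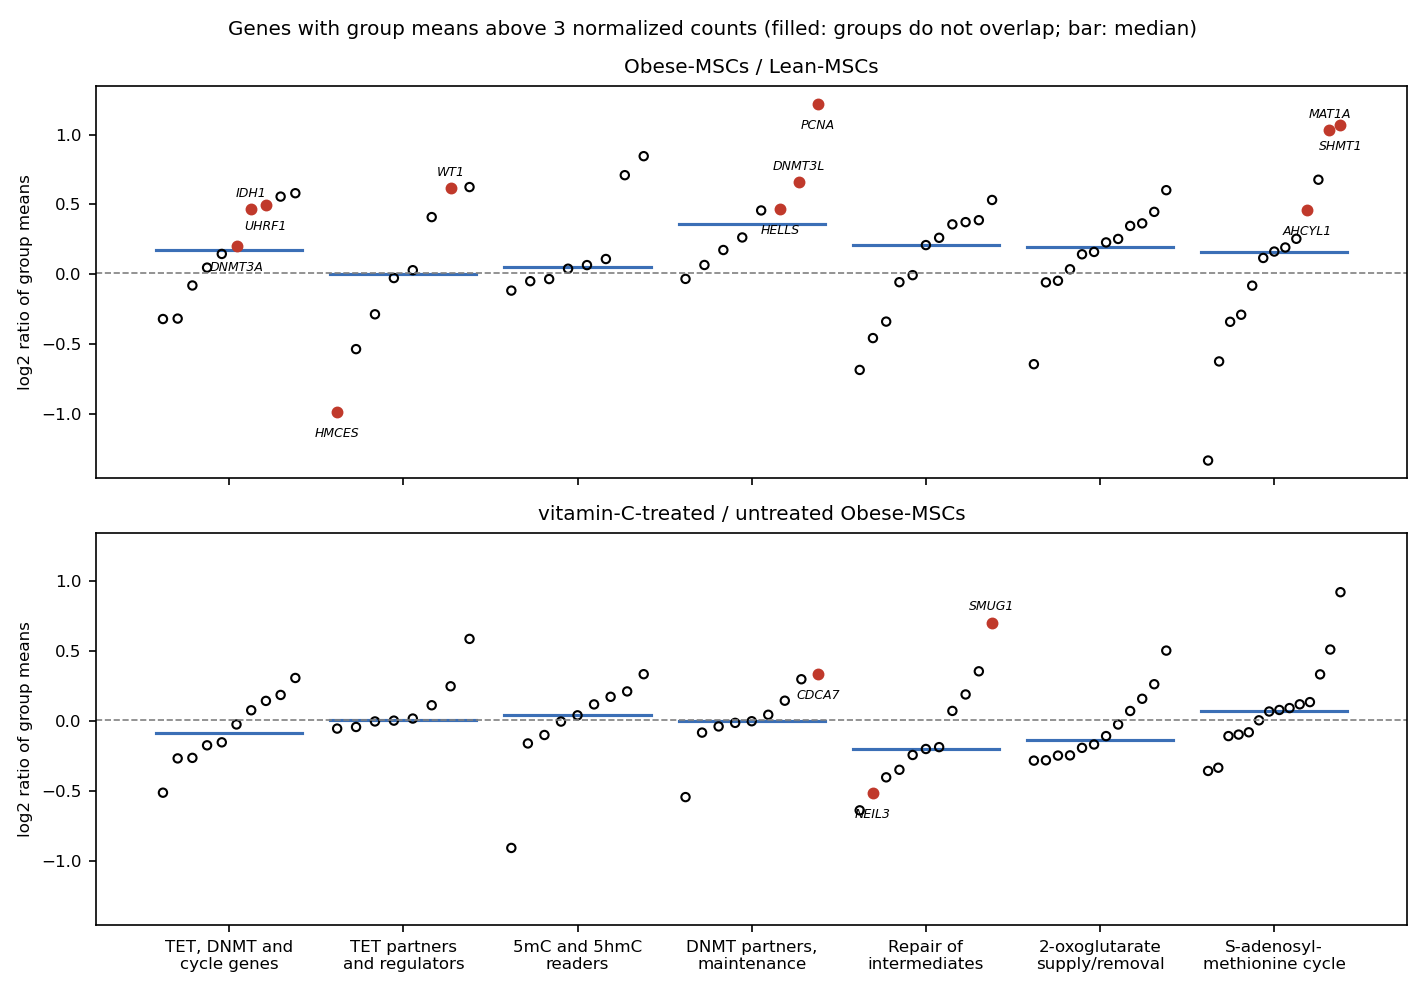
Log2 ratios of group means (vertical axis) for the 10 genes and the 6 groups of other pathway genes, for genes with means above 3 normalized counts in both groups, with Obese-MSCs over Lean-MSCs on top and vitamin-C-treated over untreated Obese-MSCs below. Filled points are genes whose groups did not overlap, blue bars are medians and the dashed line is the median of all genes. The 10 genes have 3 filled points on top and 0 below.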

How the data were processed

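hMeDIP-seq libraries of 3 Lean, 3 untreated Obese and 3 vitamin-C-treated Obese swine MSC samples were used. The authors aligned paired reads with Bowtie2 2.3.3.1 to susScr 11.1, removed duplicates with Picard 1.67, summed exonic reads by gene with HTSeq 0.9.1 and processed them with edgeR 3.28.1. The deposited values are a normalized 5hmC signal per gene (normalized counts), fractional and never negative. Whole reads were not recovered from them, since between 40.4% and 100% of the values below 12 steps, but only between 21.0% and 69.3% of those above, lay within 0.1 of a multiple of the step that suited the library best, so no test for counts was run, the depth in reads is not known, and no counting intervals were computed. Residues near 0 were set to 0, 645 of them, all in the vitamin-C table. All columns were used, and libraries were assigned by the submitters' labels.

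Every test was computed over a whole table. The criteria use the thresholds that the paper states (an unadjusted p of 0.05 and ratios of 1.4 and 0.7). All calls were computed here, and the paper's own calls were not used. limma 3.58.1 in R 4.3.3 was fitted with a trend to log2(value + 1), which understates the changes of low genes, over the upper 80% of genes by mean (15146 and 15194), with Benjamini-Hochberg adjustment. Log2 ratios are of group means without a pseudocount. Exact permutation tests are two-sided over 20 arrangements. Means of 3 or less give no fold change. Python 3.11.15, numpy 2.4.6, pandas 2.3.3, scipy 1.17.1 and matplotlib 3.10.9 were used, and both procedures were tested on simulated data. Positions come from RefSeq's table for Sscrofa11.1, found for all 10 genes. Sequences and exon lengths were not used here.

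The 10 genes, the pathway lists and the tests were chosen with earlier results of these data known. All 10 genes are named. Pathway genes are named if they met the criteria in a table with a mean above 3 in a group, and otherwise the gene with the largest ratio of its group was chosen, which is not reported here. Alternatives were other pseudocounts, filters, variance models and thresholds, size factors, quantile normalization and each library left out in turn. Added after seeing the data were rounded ratios and a block that matches treated to untreated libraries. Human libraries and mRNA sequencing were not analysed here.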

Additional observations from a re-analysis of the deposited data

How the results depend on the processing

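Leaving out 1 library at a time, between 0 and 2 of the 10 genes met the criteria in Obese-MSCs versus Lean-MSCs and between 0 and 1 with vitamin-C. The number whose groups did not overlap was then between 4 and 5 (3 with all libraries) and between 0 and 2 (0 with all libraries), as groups of fewer libraries overlap less easily. It was 5 without Obese library 1 or Obese library 2, and with vitamin-C 2 without treated library 4 or untreated library 1. Shares of all genes with a library left out were not computed for either of these counts, which are a description only. The median log2 ratio of the 10 genes lay between 0.10 and 0.29 and between -0.17 and 0.06. Without the ratio criterion 2 genes (DNMT3A and IDH1) passed in Obese-MSCs, and with ratios rounded to 1 decimal 1 gene (IDH1) did. None of the 10 genes passed limma under any of the 13 alternatives of the first or 14 of the second comparison. Scaling by size factors or quantiles turned the sign of no gene. TET2, TET3 and DNMT1 changed sign in at least 1 setting of both comparisons, as did DNMT3A, DNMT3B, UHRF1 and IDH2 with vitamin-C, each time when 1 library was left out. The treated and untreated groups share no replicate numbers in the labels, so the comparison was not paired. The paper describes Obese-MSCs grown for a further passage with or without vitamin-C, and does not say which cultures share an animal. If cultures were paired by animal, the unpaired tests leave that pairing out. With a replicate block seen in the data 0 of the 10 genes passed limma. Limits of these values are the 3 libraries per group, the unknown read depth and the single value for all exons of a gene. No input library was used here, so unspecific capture was not separated from 5hmC.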

Other observations

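In the 15194 genes of the second comparison tested with limma, deviations from the group mean on the log2(value + 1) scale were most alike between treated library 4 and untreated library 1 (Pearson's r = 0.26), treated 5 and untreated 2 (0.34), and treated 6 and untreated 3 (0.15). All other combinations of treated and untreated libraries had values between -0.22 and -0.03. These correlations are over genes of the same libraries, deviations within a group of 3 sum to 0, and the labels do not say that these libraries belong together. In that matching, which was chosen after seeing the data, TET3 was higher with vitamin-C in 3 of 3 pairs, with log2 ratios of 0.14, 0.04 and 0.26. DNMT3B was lower in 3 of 3, with -0.24, -0.08 and -0.17, and TDG was lower in 3 of 3, with -0.61, -0.76 and -0.02. The other 7 genes moved both ways. The share of all genes that went 1 way in 3 of 3 pairs was not computed, so no direction is drawn from these counts. DNMT1, which spread from 35.1 to 73.8 normalized counts over these 6 libraries, differed by 0.20, -0.01 and -0.23 within the pairs. With this matching as a block, limma called 0 of 15194 genes at an adjusted p of 0.05. An unadjusted p of 0.05 or less was found for 372 genes, against 148 without the block, and 0 of the 10 genes were among the 372. The matching came from these same libraries, so these p-values can be too small.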
